A study of Mus musculus with 24 samples.

Results

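The interaction of the mG4H genotype with streptozotocin diabetes was measured in mouse left ventricle, gene by gene, as the difference (mG4H STZ minus mG4H VEH) minus (CON STZ minus CON VEH). All 24 of the 24 arrays of the series entered it, chosen by the genotype and treatment in their titles. Each array held the ventricle RNA of 1 male mouse, with 6 mice in each group. mG4H STZ mice carried a transgene that drives the glucose transporter GLUT4 in cardiomyocytes when induced, and received streptozotocin (STZ), a toxin of the insulin-producing beta cells, at 55 mg/kg on 5 consecutive days. mG4H VEH mice carried the same transgene and received the citrate buffer (VEH). CON STZ and CON VEH mice were the controls for the genotype under the same injections. The transgene was switched on 2 weeks after STZ, for 2 weeks. The inducer, the promoter, the age and strain of the mice, and whether CON mice received the inducer are not given in the sources used here. The labels say that every group had at least 1 sibling pair with another group, without naming the siblings.

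An interaction of 0 means that STZ shifted a gene by the same amount in both genotypes. Its value equals the genotype difference (mG4H minus CON) under STZ minus the genotype difference under vehicle, so either pair of groups can make it. A gene was called a vehicle level gene where the vehicle pair gave at least 0.667 of the interaction, a STZ level gene where the STZ pair did, and otherwise a gene of both. GLUT4 carries glucose into heart muscle when insulin moves it to the cell surface. A diabetic heart lacks this insulin signal and burns mostly fatty acids, a fuel choice that the lipid-activated receptor PPAR alpha writes into gene expression. The pyruvate dehydrogenase kinase Pdk4 and the acyl-CoA thioesterases are among its targets.

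Arrays had a 75th percentile of processed signal of 370 to 583 and 58.5% to 76.3% of their spots well above background. Precision is limited by the number of arrays. Each of slides 1 to 3 carried every group with 1 or 2 mice. Slide 4 carried only replicate 3 of mG4H VEH and replicate 3 of CON VEH and had its own scan day. Slides accounted for 86.7% of the first principal component, which held 43.0% of the variance. Cardiomyocyte markers dominated every group, with a summed level, relative to the 75th percentile, of 4948 to 6198 in mG4H STZ, 4863 to 6409 in mG4H VEH, 4579 to 6376 in CON STZ and 5000 to 6640 in CON VEH.

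No gene passed the interaction test in the fit of the 4 group means, which has no slide term. Of 28230 genes, 0 (0%) had an adjusted p under 0.05 by limma with Benjamini-Hochberg adjustment, and the smallest adjusted p was 0.150. With slide as a block 1 gene passed, Abat (adjusted p = 0.0431), and deviations of arrays on the same slide had a median correlation of 0.297 over 61 pairs. Without adjustment, 500 genes (1.77%) had p under 0.05, of which 226 lay below 0 (0.801% of all genes) and 274 above 0 (0.971%). This is fewer than the share of 0.05 that would be expected if no gene had an interaction. The number was 783 with slide as a block and 1798 with array weights. The cause of the low number was not tested. By sign alone, 45.0% of all genes lay below 0 and 55.0% above, and the median interaction was 0.02 on the log2 scale. The STZ effect itself passed in 75 genes of mG4H hearts (0.266%) and in 1117 genes of CON hearts (3.96%). Leaving out 1 array moved the mG4H count by over 1.5 times for most arrays, to between 17 (without replicate 1 of mG4H VEH, or without replicate 3 of mG4H STZ) and 636 (without replicate 2 of mG4H STZ). The CON count lay between 636 and 1640 in the same way, with 636 without replicate 1 of CON STZ, 705 without replicate 3 of CON VEH and 732 without replicate 5 of CON STZ. These counts do not test a difference between the genotypes, and the 2 effects are the terms of the interaction. The genotype difference passed in 3 genes under STZ (0.0106%) and in 23 genes under vehicle (0.0815%). Leaving out 1 array gave 2 to 12 genes under STZ, 12 without replicate 3 of CON STZ, and 13 to 38 under vehicle, with 38 without replicate 3 of mG4H STZ, 13 without replicate 3 or 4 of CON VEH, 14 without replicate 4 or 5 of mG4H VEH and 15 without replicate 6 of mG4H VEH. Averaged over both treatments, it passed in 86 genes (0.305%), and in 38 without replicate 4 of mG4H VEH, 55 without replicate 2 of mG4H STZ and 56 without replicate 5 of CON STZ. This average is uncorrelated with the interaction, and for a gene whose genotype differences have opposite signs it asks which of them is larger.

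The 30 named genes of smallest p had signal well above background throughout 1 or more groups, and none of them passed. The vehicle pair made the interaction in 15 of them, the STZ pair in 3 (Clvs1, Prkab1 and Mov10l1), and both pairs in 12. Over all genes, most of whose interactions lie near 0, the shares were 36.5% vehicle level, 45.1% STZ level and 18.5% both. The vehicle difference was the larger in 23 of the 30, against 45.2% of all genes. Since the genes were chosen by the interaction, these shares are a description. The averaged genotype effect passed in 5 of the 30 (0.305% of all genes). It shares each gene's residual variance with the interaction that chose the genes, so this share is a description too. The 5 were Abat, Cib3, Dcxr, Gcat and Cdh16. In all 5 the average was below 0, and the mG4H mean lay below the CON mean under both treatments, by more under vehicle.

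**Figure D1:**
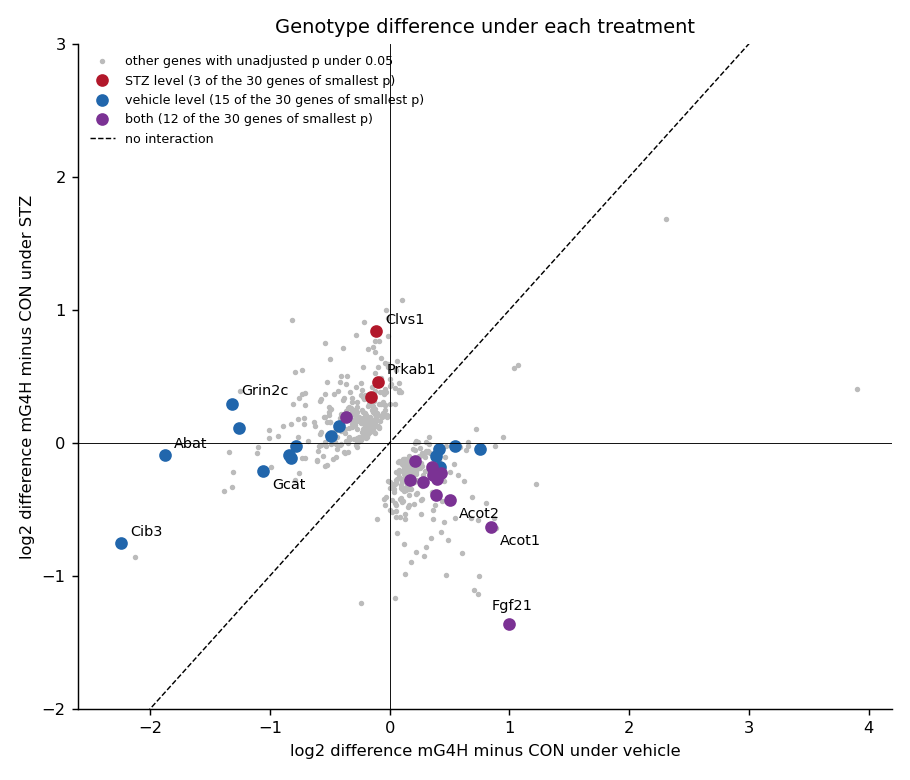
Genotype difference (mG4H minus CON, log2) under STZ on the vertical axis and under vehicle on the horizontal axis. Coloured points are the 30 genes of smallest interaction p by level class, grey points the genes with unadjusted p under 0.05, and a point on the dashed line has no interaction. Most blue points lie near the horizontal line at 0, where the genotypes differ under vehicle and hardly under STZ, while Fgf21 and Acot1 lie below 0 under STZ and above 0 under vehicle.

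Abat had the smallest p. It encodes the mitochondrial transaminase that breaks down GABA and beta-alanine, and its probe lies at chromosome 16, 8621576 to 8621635, of mm9. All levels of single genes below are log2 values against the array's 75th percentile. Abat had a lowest, median and highest level of 1.09, 1.70 and 2.31 in mG4H STZ hearts, and of 1.73, 1.85 and 3.12 in mG4H VEH hearts. It had 1.20, 1.82 and 2.18 in CON STZ hearts, against 3.87, 3.92 and 4.15 in CON VEH hearts. CON VEH stood alone: every CON VEH heart was above every other heart, and the other groups overlapped. The interaction was 1.79 ± 0.30 (SE; adjusted p = 0.150, limma). The genotype difference was -0.09 under STZ and -1.88 ± 0.21 under vehicle, 3.68-fold lower in mG4H VEH, and the vehicle difference passed (adjusted p = 9.5e-05, limma). STZ changed Abat by -0.38 in mG4H, which did not pass, and by -2.17 in CON, 4.49-fold (adjusted p = 1.1e-05). The averaged genotype effect was -0.99 (adjusted p = 0.0028). Abat was a vehicle level gene in 41 of 41 settings, and its interaction was 1.86, 1.94 and 2.26 within slides 1, 2 and 3.

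The highest mG4H VEH level of Abat, 3.12, belonged to replicate 3, which was on slide 4. Without that array the interaction was 1.99 and passed (adjusted p = 0.000987, limma). It also passed with slide as a block (adjusted p = 0.0431). Over the 38 alternatives that pool slides or leave out 1 array, the interaction of Abat lay between 1.60 and 2.08 and its adjusted p between 0.000724 and 1, the highest with median scaling.

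**Figure D2:**
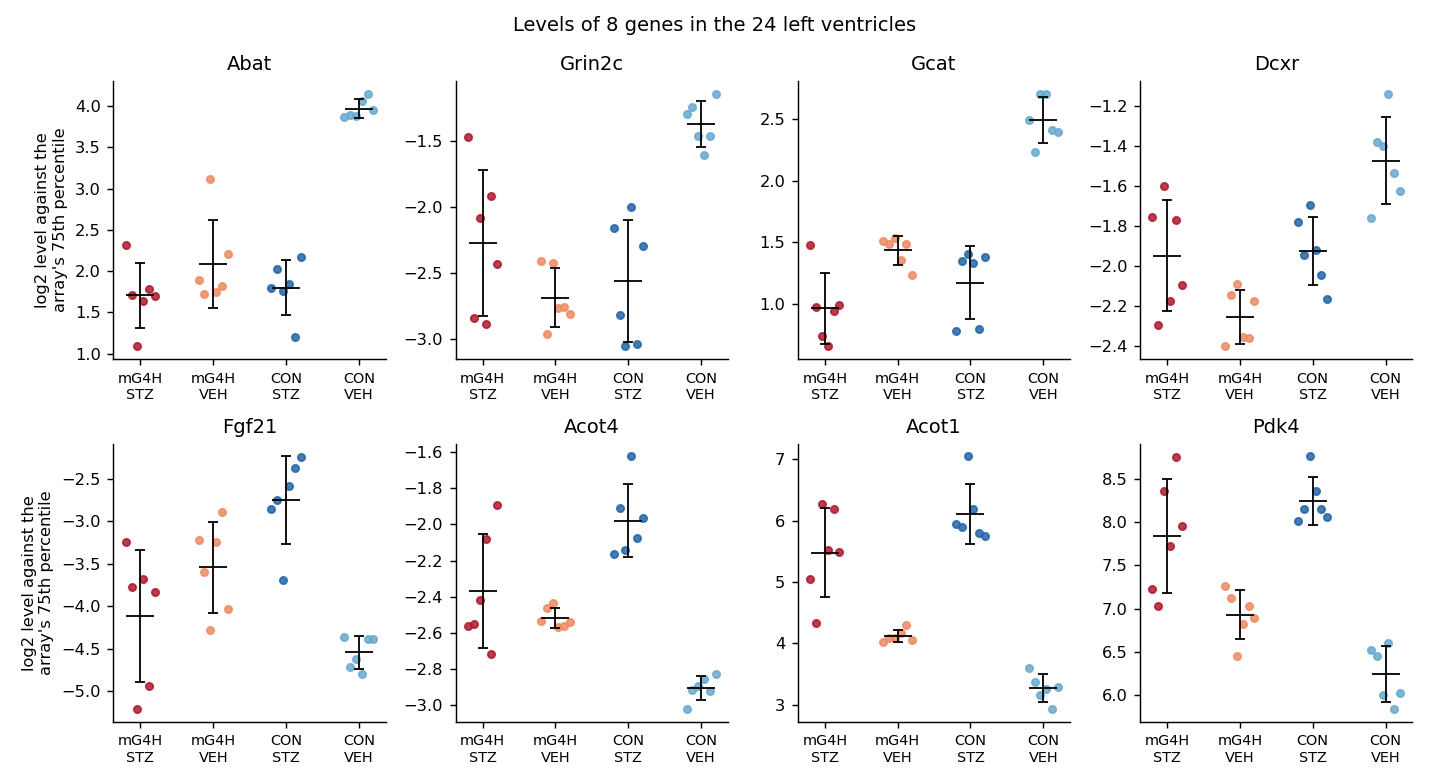
Level of 8 genes (log2 against the array's 75th percentile) in each of the 24 hearts. Points are mice, and bars show the mean and SD of 6 mice. CON VEH is above mG4H VEH and CON STZ in Abat, Grin2c and Gcat, whereas for Fgf21, Acot4, Acot1 and Pdk4 CON STZ has the highest median and CON VEH the lowest.

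Grin2c, which encodes the 2C subunit of the NMDA glutamate receptor, had the third smallest p. Its levels were -2.88, -2.25 and -1.47 (lowest, median, highest) in mG4H STZ and -2.96, -2.76 and -2.41 in mG4H VEH. They were -3.05, -2.55 and -2.0 in CON STZ, against -1.61, -1.38 and -1.14 in CON VEH. As for Abat, CON VEH was above both mG4H VEH and CON STZ with no overlap. The interaction was 1.61 ± 0.31 (SE; adjusted p = 0.311, limma), from a genotype difference of 0.29 under STZ and -1.32 under vehicle (adjusted p = 0.010). STZ changed it by 0.42 in mG4H, which did not pass, and by -1.19 in CON (adjusted p = 0.0030).

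Cib3, a calcium and integrin binding protein, was low in mG4H hearts under both treatments. Its levels were -3.73, -3.02 and -2.66 in mG4H STZ, -3.72, -3.30 and -2.87 in mG4H VEH, -3.52, -2.14 and -1.93 in CON STZ, and -1.43, -1.06 and -0.57 in CON VEH. Every CON VEH heart was above every heart of the other groups, and the lowest CON STZ heart, replicate 1, lay far from the other 5. The interaction was 1.49 ± 0.33 (SE), with genotype differences of -0.75 under STZ, which did not pass, and -2.24 under vehicle (adjusted p = 4.1e-05, limma). The averaged genotype effect of -1.50 passed (adjusted p = 6.4e-05).

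Gcat, the glycine C-acetyltransferase of threonine breakdown, had levels of 0.65, 0.95 and 1.48 in mG4H STZ and 1.23, 1.48 and 1.53 in mG4H VEH. It had 0.78, 1.34 and 1.40 in CON STZ, against 2.23, 2.45 and 2.71 in CON VEH. Every mG4H VEH heart was below every CON VEH heart, and under STZ the genotypes overlapped. The interaction was 0.85 ± 0.19 (SE), and the genotype difference was -0.21 under STZ and -1.06 under vehicle (adjusted p = 0.00053, limma). Dcxr, the dicarbonyl and xylulose reductase, also had its highest median in CON VEH but its lowest in mG4H VEH, with medians of -1.93 in mG4H STZ, -2.26 in mG4H VEH, -1.93 in CON STZ and -1.47 in CON VEH. Its interaction was 0.76 ± 0.17 (SE), with genotype differences of -0.02 under STZ and -0.78 under vehicle (adjusted p = 0.0058).

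Ccbl2, the kynurenine aminotransferase now named Kyat3, was among the 30 as well. Its interaction was 0.75 ± 0.21 (SE), with -0.09 under STZ and -0.84 under vehicle (adjusted p = 0.021, limma). Its other probe gave 0.65. Cdh16, a cadherin, had 0.70 ± 0.20 (SE), but this came to 0.96, 0.02 and 0.83 within slides 1, 2 and 3.

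Some vehicle level genes had the opposite sign, with mG4H VEH above CON VEH. Impa2, an inositol monophosphatase, had levels of 2.52, 3.14 and 3.50 in mG4H STZ and 2.69, 3.01 and 3.13 in mG4H VEH, and of 2.85, 3.08 and 3.43 in CON STZ, against 1.86, 2.25 and 2.42 in CON VEH. Only the CON VEH hearts were low. The interaction was -0.80 ± 0.20 (SE), and the genotype difference was -0.05 under STZ and 0.75 under vehicle (adjusted p = 0.032, limma). Pth1r, the parathyroid hormone receptor, had -0.57 ± 0.14 (SE), with -0.02 under STZ and 0.55 under vehicle (adjusted p = 0.024). Dbi, the acyl-CoA binding protein, had -0.49 ± 0.15 (SE), with -0.10 under STZ and 0.39 under vehicle, which did not pass. Klf10, a zinc finger factor that responds to glucose, was the Mondo and ChREBP list's gene of smallest p. It had an interaction of -0.62 ± 0.19 (SE), 0.11 under STZ and 0.72 under vehicle (adjusted p = 0.032). Acaca, the acetyl-CoA carboxylase that makes malonyl-CoA, had -0.47 ± 0.19 (SE), and its genotype difference was 0.57 under STZ and 1.04 under vehicle (adjusted p = 0.00053). Acaca was higher in mG4H on average as well, by 0.80 (adjusted p = 8.7e-05).

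Fgf21 belonged to the genes made by both pairs. It encodes a fasting and stress hormone of the fibroblast growth factor family, induced in other tissues through PPAR alpha and through the amino acid response. Its probe lies at chromosome 7, 52869305 to 52869364, of mm9. Fgf21 had levels of -5.21, -3.80 and -3.24 in mG4H STZ, where 5 of 6 arrays were well above background, and of -4.28, -3.42 and -2.89 in mG4H VEH. It had -3.69, -2.67 and -2.24 in CON STZ, against -4.79, -4.50 and -4.36 in CON VEH. The genotype order turned over: mG4H VEH lay above CON VEH with no overlap, while under STZ the mG4H median was below that of CON and the groups overlapped. The interaction was -2.36 ± 0.43 (SE; adjusted p = 0.228, limma), from -1.36 under STZ and 0.999 under vehicle, neither of which passed. STZ changed Fgf21 by -0.57 in mG4H, which did not pass, and by 1.79 in CON (adjusted p = 0.0017). The interaction was -3.27, -1.80 and -2.41 within slides 1, 2 and 3, and moved by over 1.5 times, to -0.85, in 1 of 37 alternatives, normexp background correction of these dim signals.

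Among the 30 were 3 acyl-CoA thioesterases, which release free fatty acids from their coenzyme A esters. Acot4, a peroxisomal member, had levels of -2.72, -2.48 and -1.89 in mG4H STZ and -2.57, -2.54 and -2.44 in mG4H VEH. It had -2.16, -2.02 and -1.62 in CON STZ, against -3.02, -2.91 and -2.83 in CON VEH. mG4H VEH was above CON VEH and CON STZ above CON VEH, each with no overlap, while mG4H STZ overlapped mG4H VEH. The interaction was -0.78 ± 0.16 (SE; adjusted p = 0.606, limma), with -0.39 under STZ and 0.39 under vehicle. The averaged genotype effect was 0.00, so that neither pair outweighed the other.

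Acot1, the cytosolic member, had levels of 4.33, 5.51 and 6.28 in mG4H STZ, 4.01, 4.08 and 4.30 in mG4H VEH, 5.76, 5.92 and 7.05 in CON STZ, and 2.93, 3.27 and 3.60 in CON VEH. STZ hearts were above VEH hearts in both genotypes with no overlap. STZ raised Acot1 by 1.36 in mG4H, 2.57-fold (adjusted p = 0.024, limma), and by 2.84 in CON, 7.16-fold (adjusted p = 4.7e-06). The interaction was -1.48 ± 0.36 (SE), with -0.63 under STZ and 0.85 under vehicle. Acot2, the mitochondrial member, had -0.93 ± 0.25 (SE), with -0.43 under STZ and 0.50 under vehicle. Acot1 and Acot2 are close in sequence, and probe signal shared between them cannot be told apart here. Cidea, a lipid droplet protein, had -0.66 ± 0.18 (SE), with -0.23 under STZ and 0.43 under vehicle, and Fkbp10, a collagen chaperone, had -0.61 ± 0.17 (SE), with -0.24 and 0.37. Cidea was of both in 30 of 41 settings and a vehicle level gene in 11.

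Promoters of these genes, picked after their motifs were seen, are shown because Gcat, a vehicle level gene, and Fgf21 and Acot4, genes of both pairs, carry the same E box, which the STZ level gene Mov10l1 carries as well. Each is a window of 300 bases, most of it before the start of the RefSeq transcript on GRCm38.p6, 5' to 3' on the gene's strand. Capitals mark 3 motifs searched on both strands. The first is a single E box CACGTG, which is only a part of the carbohydrate response element. The others are the single nuclear receptor repeat AGGTCA, which reads TGACCT on the other strand, and the amino acid response element core TTGCATCA. Fgf21 lies at chr7:45615441-45615740 (minus strand), Acot4 at chr12:84038129-84038428 (plus strand) and Gcat at chr15:79030624-79030923 (plus strand).
Fgf21: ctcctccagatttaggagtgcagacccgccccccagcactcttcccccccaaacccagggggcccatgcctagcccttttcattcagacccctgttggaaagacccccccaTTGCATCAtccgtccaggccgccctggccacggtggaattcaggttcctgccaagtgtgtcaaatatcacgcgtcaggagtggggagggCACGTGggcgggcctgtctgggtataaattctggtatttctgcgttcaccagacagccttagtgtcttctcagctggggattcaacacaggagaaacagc
Acot4: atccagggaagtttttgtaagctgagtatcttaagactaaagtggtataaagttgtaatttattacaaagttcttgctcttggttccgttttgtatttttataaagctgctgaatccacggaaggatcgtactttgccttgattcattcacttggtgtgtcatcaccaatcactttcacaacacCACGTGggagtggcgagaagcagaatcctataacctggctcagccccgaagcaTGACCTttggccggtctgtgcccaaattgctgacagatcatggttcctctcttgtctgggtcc
Gcat: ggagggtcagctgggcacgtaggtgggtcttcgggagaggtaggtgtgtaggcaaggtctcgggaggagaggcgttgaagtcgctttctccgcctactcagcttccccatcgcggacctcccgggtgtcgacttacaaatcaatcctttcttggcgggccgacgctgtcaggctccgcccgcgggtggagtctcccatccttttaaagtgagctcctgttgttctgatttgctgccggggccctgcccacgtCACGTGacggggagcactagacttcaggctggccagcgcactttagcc
Counted from the start site, the E box begins at -50 in Fgf21, at -66 in Acot4 and at 3 in Gcat, the receptor repeat at -13 in Acot4, and the amino acid response core at -139 in Fgf21. The table held a promoter for 18 of the 30 genes. The E box was in 4 of the 18 genes, against 7.15% of 32851 promoters (2187 of 27025 genes), the receptor repeat in 4, against 16.3%, and the amino acid response core in 1, against 0.895%. A match is a stretch of letters and was not tested as a binding site.

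The STZ pair alone made 3 of the 30. Clvs1, which encodes clavesin, a lipid-binding protein of endosomes, had levels of -1.59, -1.08 and -0.78 in mG4H STZ and -0.97, -0.59 and -0.23 in mG4H VEH. It had -2.70, -1.84 and -1.66 in CON STZ, against -0.63, -0.58 and -0.17 in CON VEH. Under STZ every mG4H heart was above every CON heart, and under vehicle the genotypes overlapped. The interaction was 0.95 ± 0.25 (SE), with 0.84 under STZ (adjusted p = 0.23, limma) and -0.11 under vehicle. STZ changed Clvs1 by -0.53 in mG4H, which did not pass, and by -1.49 in CON (adjusted p = 7.2e-05). Clvs1 was a STZ level gene in 41 of 41 settings.

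Prkab1, the beta 1 subunit of the AMP-activated kinase, a sensor of cell energy, had medians of 0.48 in mG4H STZ, 0.22 in mG4H VEH, 0.00 in CON STZ and 0.30 in CON VEH. All 4 groups overlapped pairwise within genotype and within treatment. Its interaction was 0.56 ± 0.15 (SE), with 0.46 under STZ and -0.10 under vehicle. Mov10l1, an RNA helicase known from the germ line, had 0.50 ± 0.15 (SE), with 0.35 under STZ and -0.15 under vehicle, and was a STZ level gene in 34 of 41 settings.

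The targets of PPAR alpha outside beta-oxidation lay mostly below 0 in the interaction. Of 25 measured, 22 were below 0 (45.0% of all genes) and 0 passed, and 9 had unadjusted p under 0.05 below 0 (0.801% of all genes). Their median interaction was -0.36, against 0.02 over all genes, with a median genotype difference of -0.22 under STZ and 0.13 under vehicle. The median STZ effect was 0.48 in mG4H and 0.87 in CON. In mG4H hearts 2 rose, Acot1 among them (0.0992% of all genes rose), and 0 fell (0.166% of all genes fell). In CON hearts 14 rose (1.66% of all genes) and 0 fell (2.30% of all genes). The mean level of the list per array was 2.67, 3.23 and 3.65 (lowest, median, highest) in mG4H STZ, 2.50, 2.64 and 2.73 in mG4H VEH, 3.39, 3.45 and 3.84 in CON STZ, and 2.31, 2.40 and 2.57 in CON VEH. The mG4H STZ hearts spread widely, with an SD of 0.34 against 0.17 in CON STZ.

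By level, 12 of the 25 were STZ level genes (45.1% of all genes), 8 of both (18.5%) and 5 vehicle level genes (36.5%), so the STZ level share was near that of all genes. Pdk4, which switches off pyruvate dehydrogenase, had levels of 7.04, 7.84 and 8.76 in mG4H STZ, 6.45, 6.96 and 7.26 in mG4H VEH, 8.01, 8.15 and 8.76 in CON STZ, and 5.84, 6.24 and 6.60 in CON VEH. The mG4H STZ range covered both high and low hearts. Its interaction was -1.09 ± 0.33 (SE), with -0.41 under STZ and 0.69 under vehicle. Angptl4, a secreted inhibitor of lipoprotein lipase, had -1.07 ± 0.44 (SE), with -0.89 under STZ and 0.18 under vehicle. Ucp3, a mitochondrial carrier, had -0.52 ± 0.41 (SE) on its brightest probe and 0.0009 on the other.

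Within slides 1, 2 and 3 the median of the list was -0.11, -0.47 and -0.54, and with slide as a block -0.36. Over the 38 alternatives it lay between -0.51 and -0.27. The enzymes of fatty acid oxidation showed a smaller shift the same way, with 20 of 24 below 0 (45.0% of all genes) and a median of -0.13, which came to -0.04 without replicate 2 of mG4H STZ and -0.08 without replicate 3 of CON STZ. In this list 2 genes had unadjusted p under 0.05 below 0 (0.801% of all genes). Hsd17b4, the peroxisomal multifunctional enzyme, had -0.27 ± 0.10 (SE), with -0.15 under STZ and 0.13 under vehicle.

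**Figure D3:**
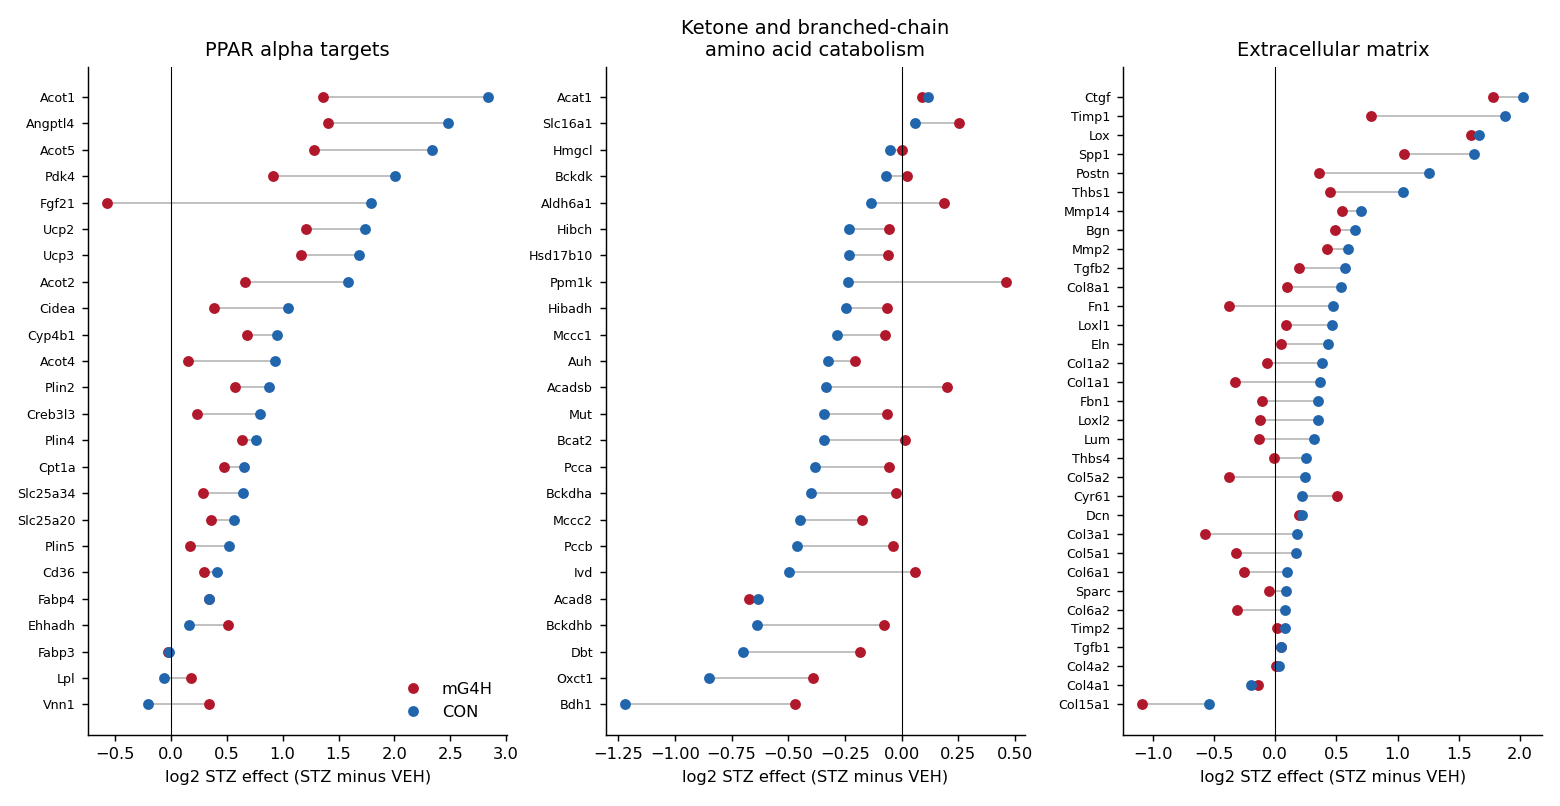
STZ effect (STZ minus VEH, log2) of the measured genes of 3 lists (24 of the 25 PPAR alpha targets are drawn) in mG4H hearts (red) and in CON hearts (blue). The horizontal distance between the points of a gene is its interaction. Red points lie left of blue for 21 of these 24 PPAR alpha targets, right of blue for 22 of 24 ketone and branched-chain amino acid genes, and left of blue for 30 of 33 matrix genes.

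Genes of ketone body and branched-chain amino acid breakdown lay mostly above 0, and most were vehicle level genes. Of 24 measured, 22 were above 0 (55.0% of all genes), 0 passed, and 7 had unadjusted p under 0.05 above 0 (0.971% of all genes). The median interaction was 0.30, with a median genotype difference of -0.02 under STZ and -0.31 under vehicle. Of these, 19 were vehicle level genes (36.5% of all genes) and 5 STZ level genes (45.1%). In CON hearts 5 fell with STZ (2.30% of all genes), while in mG4H hearts 0 fell (0.166% of all genes). The mean level of the list per array was 3.21, 3.35 and 3.73 in mG4H STZ, 3.45, 3.48 and 3.54 in mG4H VEH, 3.15, 3.50 and 3.67 in CON STZ, and 3.67, 3.83 and 3.92 in CON VEH. The mG4H VEH hearts lay in a narrow band below all CON VEH hearts.

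Oxct1, which activates ketone bodies for oxidation, had levels of 5.84, 6.30 and 6.55 in mG4H STZ, 6.53, 6.60 and 6.81 in mG4H VEH, 6.06, 6.40 and 6.55 in CON STZ, and 7.08, 7.11 and 7.42 in CON VEH. CON VEH was above every other group with no overlap. Its interaction was 0.46 ± 0.16 (SE), with -0.10 under STZ and -0.55 under vehicle (adjusted p = 0.077, limma). Bdh1, the hydroxybutyrate dehydrogenase, had 0.75 ± 0.39 (SE), with -0.27 under STZ and -1.02 under vehicle. Ivd, isovaleryl-CoA dehydrogenase, had 0.56, with -0.03 and -0.59. Bckdhb, a subunit of the branched-chain keto acid dehydrogenase, had 0.56, with -0.02 and -0.58, and Ppm1k, the phosphatase that switches that complex on, had 0.70, with 0.01 and -0.68. None of these vehicle differences passed. The median of the list was 0.35, 0.31 and 0.16 within slides 1, 2 and 3, and between 0.23 and 0.35 over the 38 alternatives.

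Matrix and fibroblast genes lay mostly below 0 over all arrays but mostly above 0 on slide 3, and most were STZ level genes. Of 33 extracellular matrix genes, 30 were below 0 (45.0% of all genes), 0 passed, and 2 had unadjusted p under 0.05 (0.801% of all genes). The median interaction was -0.39, with a median genotype difference of -0.29 under STZ and 0.02 under vehicle, and 24 were STZ level genes (45.1% of all genes). In CON hearts 8 rose with STZ (1.66% of all genes), and in mG4H hearts 0 did (0.0992% of all genes). Fn1, fibronectin, had an interaction of -0.85 ± 0.36 (SE), with -0.47 under STZ and 0.38 under vehicle. Eln, elastin, had -0.39, and Postn, periostin, a matrix protein of activated fibroblasts, had -0.90, with -0.71 under STZ and 0.19 under vehicle. Of 13 fibroblast markers, some of which are also on the matrix list, 13 were below 0, with a median of -0.36, and 11 were STZ level genes.

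In bulk tissue, fewer cells of a type and less RNA per cell cannot be told apart. The summed fibroblast marker level, relative to the 75th percentile, was 665 to 859 in mG4H STZ, 637 to 848 in mG4H VEH, 741 to 955 in CON STZ and 665 to 772 in CON VEH. The part of fibroblast content in the matrix result was not tested. Slides disagreed: the matrix median was -0.36, -0.69 and 0.20 within slides 1, 2 and 3, and the fibroblast median -0.38, -0.59 and 0.27. On slide 3, 25 of 33 matrix genes and 11 of 13 fibroblast markers lay above 0. Without replicate 3 of CON STZ, which was on slide 3, the matrix median was -0.57.

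Macrophage and monocyte markers had 13 of 15 below 0 (45.0% of all genes) and a median of -0.22, with -0.14, -0.76 and 0.50 within slides 1, 2 and 3. The median came to -0.097 without replicate 1 of CON STZ, -0.34 without replicate 3 of CON STZ, -0.35 and -0.13 without replicates 3 and 5 of mG4H STZ, and -0.39 with array weights. In the list of the unfolded protein and integrated stress responses, 21 of 29 were below 0 (45.0% of all genes) and the median was -0.15. It held 4 genes with unadjusted p under 0.05 below 0 (0.801% of all genes). Fgf21, which is also on the list of PPAR alpha targets, was 1 of them. The other 3 were genes of serine, one-carbon and asparagine synthesis. These were Mthfd2 at -0.97 ± 0.36 (SE), Asns at -0.73 and Phgdh at -0.38, all lower in mG4H than in CON under STZ, by -1.21, -0.68 and -0.41, with -0.24, 0.06 and -0.03 under vehicle, though none of these differences passed. The median of the list was 0.0065 on slide 3 and -0.02 with body weight as a covariate. It was -0.071 without replicate 1 of CON STZ, -0.075 without replicate 4 of CON VEH, -0.087 without replicate 4 of mG4H STZ and -0.097 without replicate 6 of mG4H VEH.

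**Figure D4:**
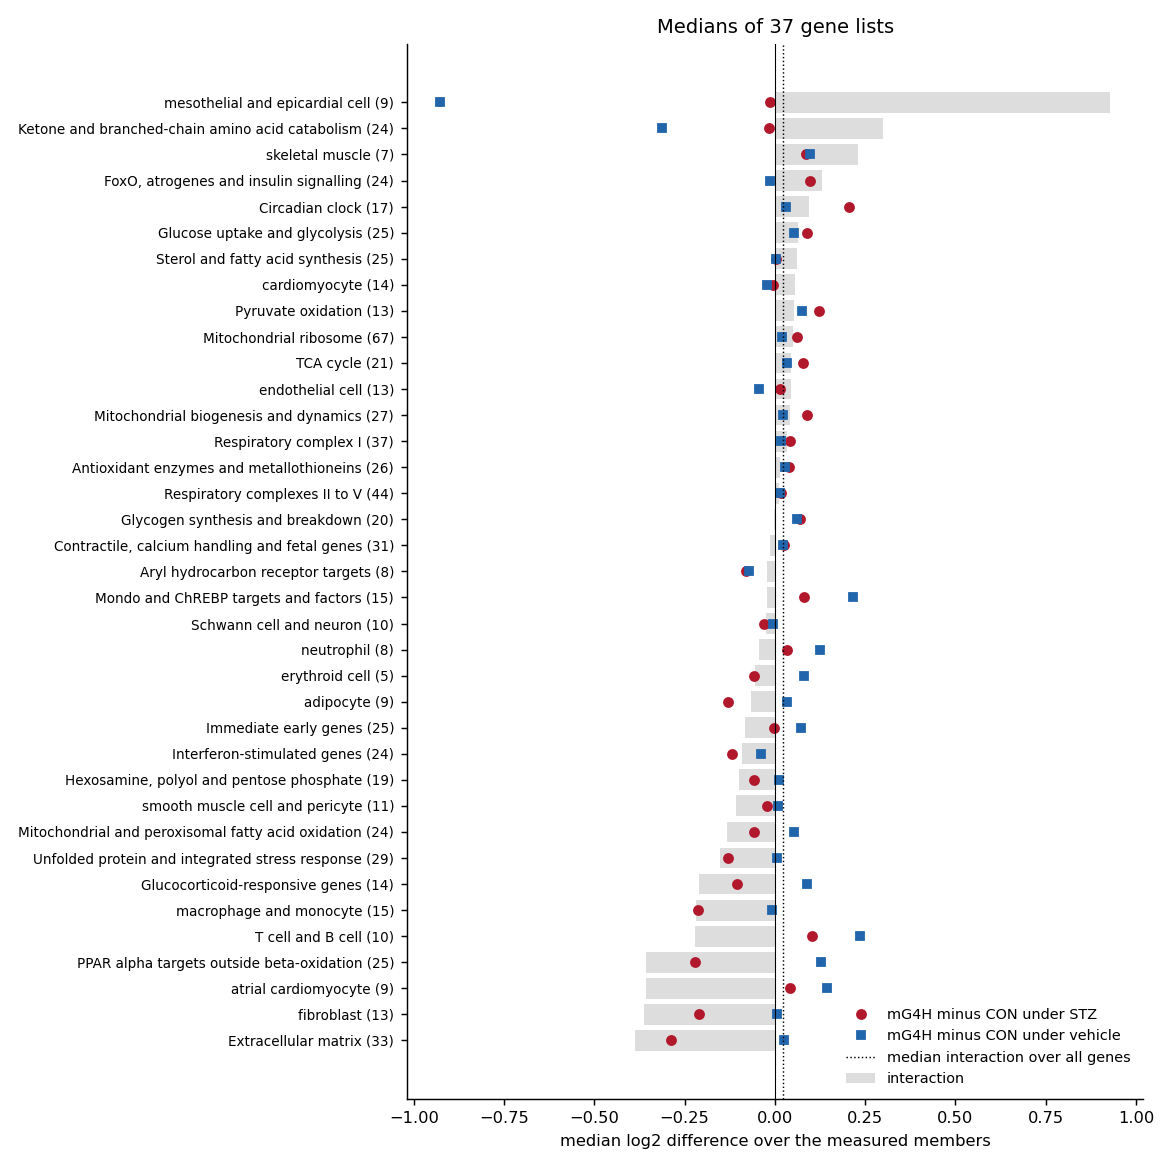
Median log2 difference over the measured members of the 37 gene lists, with the number measured in brackets. Grey bars are the interaction, circles and squares the genotype difference under STZ and under vehicle, and the dotted line the median interaction over all genes, 0.02. The lists of PPAR alpha targets, matrix, fibroblast and atrial cardiomyocyte lie low with circles left of squares. The mesothelial and epicardial list lies highest, at 0.93, and the ketone and branched-chain list lies high at 0.30, both with the square left of the circle.

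Mitochondrial lists lay near the median of all genes. The median interaction was 0.03 for 37 genes of respiratory complex I, 0.01 for 44 genes of complexes II to V, 0.05 for 67 mitochondrial ribosome genes, 0.04 for 21 genes of the TCA cycle and 0.04 for 27 genes of mitochondrial biogenesis. Pcx, the pyruvate carboxylase that refills the TCA cycle, had the smallest p of its list, with an interaction of 0.86 ± 0.26 (SE) and genotype differences of 0.15 under STZ and -0.71 under vehicle, which did not pass. Ppargc1a, a coactivator of mitochondrial biogenesis, had -0.01 ± 0.25 (SE). Median scaling moved the median of all genes to -0.04, and the medians of the 5 lists moved with it, to between -0.053 and -0.0091.

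Genes of glucose handling showed no common direction. Of 25 genes of glucose uptake and glycolysis, 12 were below 0 and 13 above, with a median of 0.06. Slc2a4, the gene of GLUT4, had levels of 5.66, 6.37 and 6.94 in mG4H STZ, 6.33, 6.57 and 6.61 in mG4H VEH, 5.60, 6.25 and 6.42 in CON STZ, and 6.51, 6.76 and 6.93 in CON VEH. Its interaction was 0.40 ± 0.23 (SE), with 0.20 under STZ and -0.20 under vehicle, and an averaged genotype effect of 0.00. The sources used here do not say which GLUT4 sequence the transgene carries, so this probe does not check the genotype. Hk2, the insulin-regulated hexokinase, had 0.36 ± 0.23 (SE), and Txnip, an inhibitor of thioredoxin and of glucose uptake, had -0.47 ± 0.26 (SE). Epm2a, the glycogen phosphatase laforin, had 0.50 ± 0.19 (SE), with 0.21 under STZ and -0.28 under vehicle.

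Contraction, calcium and fetal heart genes had a median interaction of -0.01 over 31 genes. With STZ, 2 of them rose in mG4H hearts (0.0992% of all genes), and 3 rose (1.66%) and 2 fell (2.30%) in CON hearts. Nppa, the atrial natriuretic peptide gene, rose by 2.00 in mG4H (adjusted p = 0.049, limma) and by 2.36 in CON (adjusted p = 0.0029), with an interaction of -0.36 ± 0.61 (SE). Myh7, the slow myosin heavy chain, rose by 1.95 in mG4H and by 1.68 in CON (adjusted p = 0.0087 and 0.0033), with 0.27 ± 0.44 (SE). Nppb, the B-type natriuretic peptide gene, had STZ effects of 0.72 in mG4H, which did not pass, and of 1.35 in CON (adjusted p = 0.0043), with -0.62 ± 0.37 (SE). Cyp1a1, the P450 enzyme gene that the aryl hydrocarbon receptor switches on, was not well above background on any vehicle array. It was well above background on 5 mG4H STZ arrays and on 6 CON STZ arrays. As a bound, it was at least 6.33-fold higher in mG4H STZ than in mG4H VEH, and at least 8.32-fold higher in CON STZ than in CON VEH. The STZ effect passed in both (adjusted p = 0.0087 and 0.00046, limma), in a fit of the values before the bound, which averaged -7.50 in mG4H VEH and -7.33 in CON VEH.

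Markers of other cells were summed per heart. Mesothelial and epicardial markers had a median interaction of 0.93 over 9 genes, with 1.41, -1.52 and 2.37 within slides 1, 2 and 3 and -0.0075 with array weights. Their summed level was 5.96 to 10.9 in mG4H STZ, 4.67 to 7.00 in mG4H VEH, 5.01 to 10.4 in CON STZ and 4.89 to 9.34 in CON VEH. Erythroid markers summed to 36.1 to 1334 in mG4H STZ, 473 to 709 in mG4H VEH, 259 to 479 in CON STZ and 408 to 627 in CON VEH. Atrial markers summed to 72.7, 98.4 and 531 (lowest, median, highest) in mG4H STZ, 29.97, 54.1 and 113 in mG4H VEH, 90.1, 188 and 368 in CON STZ, and 42.7, 47.6 and 54.2 in CON VEH. In this sum, which includes Nppa, every CON STZ heart was above every CON VEH heart. The mean log2 level of the same 9 markers overlapped, at -0.45 to 0.22 in CON STZ and -0.76 to -0.29 in CON VEH. Their median STZ effect in CON was 0.06, and 1 of the 9 rose past the threshold (1.66% of all genes). Their median interaction was -0.36, with -0.46, -0.15 and 0.22 within slides 1, 2 and 3 and -0.04 with array weights. Adipocyte markers summed to 324 to 510 in mG4H STZ, 277 to 348 in mG4H VEH, 98.6 to 591 in CON STZ and 275 to 343 in CON VEH. The part of these cells in the gene results was not tested.

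The traits in the labels gave no interaction past the threshold. Blood glucose at 4 weeks, whose unit is not given, averaged 553.8 ± 51.9 in mG4H STZ, 139.3 ± 7.69 in mG4H VEH, 600.8 ± 0.408 in CON STZ and 140.7 ± 19.9 in CON VEH (SD, n = 6 each). The difference of differences was -45.7 (two-sided exact permutation test within treatments, p = 0.104, adjusted over both traits p = 0.208), made by -47.0 under STZ and -1.33 under vehicle. All 6 CON STZ mice and 3 mG4H STZ mice read 600 or 601, and whether this is the limit of the meter is not given in the sources used here. Body weight, also without a unit, averaged 24.7 ± 2.35 in mG4H STZ, 27.3 ± 2.25 in mG4H VEH, 25.6 ± 2.31 in CON STZ and 30.9 ± 3.07 in CON VEH (SD, n = 6 each). The difference of differences was 2.65 (exact permutation test, p = 0.253, adjusted p = 0.253), made by -0.9 under STZ and -3.55 under vehicle. For both traits the test reassigned genotype within each treatment. Its null is thus no genotype difference under either treatment, and it is not exact for the interaction alone. With body weight as a covariate the median of the PPAR alpha targets was -0.27.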

How the data were processed

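Total RNA of 24 left ventricles was labelled with Cy3 and hybridised singly to Agilent 1-colour arrays. Per the file headers, Agilent Feature Extraction gave each spot a background-subtracted processed intensity; the deposited intensity columns used were the processed signal and, for 1 alternative, the mean and local background signals. Probe positions are those of mm9 in the deposited files. The submitters' processing notes also name limma, with no step given.

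The log2 of the processed intensity was reduced by each array's 75th percentile over gene spots, spots of a probe were averaged, and of 55681 probes 39760 were kept as well above background on 6 or more arrays. The brightest probe stood for a gene, which left 28230 genes, 19137 with a symbol. Of 33064 probes with a RefSeq accession 26413 matched the GRCm38.p6 table, and 3093 matched under another symbol. limma 3.58.1 in R 4.3.3 fitted the 4 group means over all 24 arrays, with Benjamini-Hochberg adjustment over all genes and a threshold of 0.05. The fit was tested on simulated data.

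Named genes were the 30 of smallest interaction p with a symbol and well above background on all 6 arrays of a group (0 passed), the gene of smallest p from each of 37 lists, and 25 set genes. Values of 3 genes that this rule names are not reported here. The members and lists (736 genes, 712 measured) were chosen with earlier results of these data known. Lists are described by counts and medians without a set test. Some genes, Fgf21 and Pdk4 among them, are on several lists, so the lists are not separate observations. The labels do not say that replicate numbers pair the mice. Deviations of arrays that share a number correlated between -0.597 and 0.662 (median 0.0035), and 16 of 36 pairs exceeded 0.1. Between arrays of other numbers the median was -0.02, and 71 of 180 pairs exceeded 0.1. Nothing says how mice were allotted to slides. Alternatives covered scaling, background correction, filters, probes, weights, slide, body weight, thresholds and each array left out. Those added after seeing the data were slides 1 to 3 with slide as a block and the list medians under each setting. A dim group's level is a bound, taken per array as the higher of its own value and the lowest signal well above background.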

Additional observations from a re-analysis of the deposited data

Results flagged for a closer look

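In the named genes, 1 heart lay far from the other 5 of its group in 24 of 320 gene groups by Dixon's gap test, and chance alone flags about 1 in 20 groups. Replicate 3 of mG4H STZ held 5 of them: Cidea was highest at 6.59, Mthfd2 highest at -0.54 and Timp1 highest at 3.52, while Fn1 was lowest at 2.43 and Kcnd2 lowest at 1.88. Replicate 3 of CON STZ held 4, with Acaca highest at 1.96, Acot1 highest at 7.05, Ccr2 lowest at -4.62 and Sod3 lowest at 3.48. Replicate 3 of mG4H VEH, on slide 4, held Abat highest at 3.12, Fam13a highest at 2.40 and Slc2a4 lowest at 6.33. Replicate 2 of mG4H STZ had the lowest Txnip at 4.98 and the highest Slc4a1, an erythroid gene, at 0.97.

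Single hearts made up the remainder. In mG4H STZ, Bdh1 was lowest at 2.71 in replicate 4 and Pi16 lowest at 4.33 in replicate 5. In mG4H VEH, Ccr2 was lowest at -2.50 in replicate 2 and Dbi lowest at 6.63 in replicate 5. In CON STZ, Cib3 was lowest at -3.52 and Gm13272 highest at -0.44 in replicate 1, Slc4a1 lowest at -6.78 in replicate 4 and Myh7 lowest at 7.81 in replicate 6. In CON VEH, Tmprss4 was highest at -0.26 in replicate 4 and Ccr2 highest at -1.63 in replicate 6. Blood glucose of CON STZ replicate 2 read 600 where the other 5 read 601. These arrays stayed in every comparison.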

How the results depend on the processing

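The interaction count was 0 in 37 of 44 settings, 1 in 6 and 6 in 1, and no threshold on the adjusted p up to 0.1 gave a gene. With array weights 6 genes passed (1798 at an unadjusted p under 0.05), Abat, Fgf21, Grin2c, Acot4, Acot1 and Fkbp10. Abat alone passed with slide as a block (count 1), on slides 1 to 3 together (1), on these with slide as a block (1, added after seeing the data), with a trended robust prior (1), without replicate 3 of mG4H VEH and without replicate 3 of mG4H STZ. Leaving out each array in turn gave 0 to 1. Of the genes of smallest p, 29 are reported here, and none of these changed sign in 1188 values. They were chosen by the interaction over the same arrays, so this is a description and no test of stability. Over 80 named genes, 3272 values under alternatives held 12 that newly passed and 35 sign changes in 16 genes that were not called. Of 1517 list medians, 1486 moved by less than the SD between arrays. For respiratory complex I the median was 0.03 and the SD within groups 0.09 to 0.16. A median this near 0 can change sign within that SD, so the count does not show that such medians are stable.

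Counts by setting, in which the cause of each move was not tested except where fewer arrays or genes entered, were as follows. The averaged genotype effect gave 220 genes with array weights, 54 after quantile normalization, 28 with a body weight covariate and 10 with median scaling. With the replicate number as a block the interaction count stayed at 0 (474 genes at an unadjusted p under 0.05) and the averaged genotype effect gave 30. No other count moved by over 1.5 times with this block. The labels do not say that the numbers pair the mice. Of 24 arrays, 8 correlated best with an array of their own number, a count that was not tested against chance. The genotype difference under vehicle gave 212 with array weights, 14 on slides 1 to 3, 12 with body weight and 8 with median scaling. Under STZ it gave 0 with normexp (1000 genes at an unadjusted p under 0.05), 1 with the mean of all probes and 16 with array weights. The STZ effect in mG4H gave 6 with median scaling, 31 with no filter, 125 with the filter on all 24 arrays, 43 with the mean of all probes, 40 with each probe on its own, 252 with array weights, 203 with the trended prior, 48 with slide as a block, 17 with body weight, 23 on slides 1 to 3 and 40 on these with the block. In CON it gave 2427 with array weights, 642 on slides 1 to 3, 168 with body weight and 75 with median scaling. Within slides 1, 2 and 3, with 7 or 8 arrays each, all 6 counts by limma were 0, with 341 to 1862 genes at an unadjusted p under 0.05 for the 5 other comparisons.

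Leaving out each array in turn, the averaged genotype effect ranged over 38 to 111, the genotype difference under vehicle over 13 to 38 and under STZ over 2 to 12, and the STZ effect over 17 to 636 in mG4H and 636 to 1640 in CON. The body weight interaction ranged over 1.54 to 3.43 (exact permutation p between 0.125 and 0.426) and that of glucose over -55.1 to -34.9 (p between 0.0559 and 0.184).

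Sign changes of genes that were not called were these. Acly was 0.046 with the mean of all probes and 0.0094 on slide 2. Ppargc1a, near 0 throughout, was 0.033 with slide as a block, 0.036 with body weight, 0.29 on slide 1 and -0.12 to 0.081 with arrays left out. Ctgf was 0.039 with body weight, 0.89 on slide 1 and -0.59 to 0.0089 with arrays left out, and Cyp1a1 was 1.18 on slide 1, 1.47 on slide 3 and -0.92 to 0.57 with arrays left out. On slide 1, Cldn5 was -0.029 and Atf3 0.13. On slide 2, Epm2a was -0.0075, Tef -0.21, Arnt -0.034 and Myh7 -0.40. On slide 3, Sod3 was 0.12, Aldh1a2 0.39, Slc4a1 -0.55, Nppa 1.08, Timp1 0.012 and Gdf15 0.32.

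Brightest probes and the remaining probes of a gene differed for 2010111I01Rik (-0.58 against -0.24), Sept6 (0.54 against -0.0003) and Ucp3. Acot1 had an SD of 0.73 in mG4H STZ and of 0.10 in mG4H VEH, so precision differed between groups. Glucose readings at 600 or 601 hold no order. Siblings across groups could not be entered as a block, since the labels do not name them.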

Other observations

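Of the 23 genes that passed under vehicle, which were chosen by that difference, 3 also passed under STZ, 17 passed in the averaged genotype effect, and 3 had genotype differences of opposite sign under the 2 treatments. Glucocorticoid-responsive genes had a median interaction of -0.21 over 14 genes, 10 of them below 0 (45.0% of all genes), with 0.33, -0.88 and -0.39 within slides 1, 2 and 3. That median came to 0.05 with body weight as a covariate, -0.48 without replicate 5 of mG4H STZ and -0.0067 without replicate 3 of CON STZ, and moved by over 1.5 times without any 1 of 8 arrays, which were replicates 3, 5 and 6 of CON STZ and replicates 2 to 6 of mG4H STZ. FoxO targets and insulin signalling genes had 0.13 over 24 genes, 18 of them above 0 (55.0% of all genes), with 0.60, -0.25 and 0.03 within slides. Their median came to -0.02 with array weights, where 13 of 24 lay below 0, and to -0.0033 without replicate 5 of mG4H STZ, 0.21 without replicate 2 of mG4H STZ, 0.065 without replicate 5 of CON STZ and 0.075 without replicate 6 of CON VEH. Kcnj3, an atrial potassium channel subunit, had 0.49 ± 0.18 (SE), with 0.55 under STZ and 0.05 under vehicle, and Kcnd2, a subunit of the transient outward current, had 0.71 ± 0.25 (SE), with 0.32 and -0.39. Tmprss4, a serine protease gene that fell with STZ in both genotypes, by 1.73 in mG4H and by 2.80 in CON on the log2 scale (adjusted p = 0.049 and 0.00015, limma), had 1.07 ± 0.53 (SE).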
